A study of Mus musculus with 14 samples.

Results

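The comparison set immature type 1 innate lymphoid cells (iILC1) against immature natural killer cells (iNK), both sorted from bone marrow of mice whose blood lineages were bred to make no IL-15. The members were the 4 libraries labelled Il15cKO_iILC1 and the 4 labelled Il15cKO_iNK, 8 of the 14 in the series, over the 26990 genes of 46078 that passed a filter on low counts. All mice were C57BL/6, aged 8 weeks, and had 1 floxed Il15 allele beside 1 knockout allele. In the conditional knockouts (cKO) the Vav-Cre transgene, which acts in blood stem cells and all that descend from them, was present as well, and by design cells outside the blood lineages kept the floxed allele intact. The 6 control libraries, 3 iNK and 3 iILC1, came from mice with the same 2 Il15 alleles and no Cre, so they too had a single working copy. Each library was made from 2000 sorted cells. The iNK gate took cells with NK1.1, DX5 and CD27 and without CD3, CD11b and IL-7Ra, and the iILC1 gate took cells with NK1.1, CD49a and IL-7Ra and without CD3.

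NK cells and ILC1s are lymphocytes without a rearranged antigen receptor that share the transcription factor T-bet and the production of interferon gamma. NK cells also depend on the related factor Eomes, carry cytotoxic granules and display Ly49 receptors, which read MHC class I on other cells. ILC1s are mostly tissue-resident cells with more cytokine than killing activity, and both lineages receive IL-15 through a receptor made of Il2rb and Il2rg that signals to the transcription factor STAT5.

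Total counts were 6254844 to 12572326 in cKO iNK, 5478641 to 10308693 in cKO iILC1, 6238016 to 8013984 in control iNK and 3512796 to 4933284 in control iILC1. Receptor genes of smell and pheromone sensing (1465 genes), which lymphocytes should not use, summed to 1827 to 2764 CPM (counts scaled by library size with TMM factors) in cKO iNK and 1689 to 3131 CPM in cKO iILC1. Per kilobase of exon the 95th percentile of these genes was 4.61 CPM in cKO iNK and 5.02 CPM in cKO iILC1. Of the 923 genes called below, 203 had less than the larger of these values in both groups. Over the 8 cKO libraries, the first principal component (30.4% of the variance) set iILC1 replicate 1 at −114 apart from the other 7, which lay between −21.2 and 55.9. The second (24.1%) held the iNK libraries at 13.4 to 72.7 and the iILC1 libraries at −58.0 to −21.9. Values per library below are in CPM, in the order of replicates 1 to 4, and means are given ± SD with n = 4 libraries a group.

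The genes of the sort gates are a check of the labels and not a result. Il7r lay at 15.6, 26.9, 19.9 and 27 CPM in cKO iNK and at 712, 631, 523 and 718 CPM in cKO iILC1, and Itga1, the gene of CD49a, at 7.95, 14.0, 14.6 and 8.43 against 80.7, 61.0, 42.9 and 59.0 CPM. Itga2, the gene of DX5, lay at 253, 160.0, 218 and 184 against 103, 86.2, 73.8 and 86.1 CPM. All 3 followed their gates without overlap. CD11b was excluded from the iNK gate only, and its gene Itgam was at 60.0 ± 7.20 CPM in cKO iNK and 35.3 ± 8.69 CPM in cKO iILC1. Itgam thus ran against its gate, without overlap between the libraries. Cd27 was at 189 ± 40.4 CPM in cKO iNK and 123 ± 41.4 CPM in cKO iILC1, and neither Itgam (adjusted p = 0.0738) nor Cd27 (adjusted p = 0.225) passed the test. Over the 17 alternatives described at the end, Itgam passed in 7 and Cd27 in 4. Klrb1c, the gene of NK1.1 in this strain, was at 1814 ± 247 CPM in cKO iNK and 1734 ± 419 CPM in cKO iILC1, with an adjusted p = 0.998. Il15 counts sum over all exons and do not show whether the floxed part was deleted. Il15 was at 10.6 ± 1.55 CPM in cKO iNK and 18 ± 5.62 CPM in cKO iILC1, a log2 fold change of 0.76 (adjusted p = 0.121).

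Some of the genes that differed most were paired by position or by sequence, and stretches of DNA before their start sites are shown for that reason. Gzmk, which has no such partner here, was picked in addition, and its stretch is marked for the motifs it holds. All 4 stretches are from RefSeq on GRCm38.p6 (mm10). Tmem176a and Tmem176b, a pair of membrane protein genes, start 109 bases apart and are read outwards on opposite strands. The 108 bases between both starts (chr6:48841375-48841482, plus strand) hold none of the motifs searched and are written in lower case.

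Tmem176a-Tmem176b: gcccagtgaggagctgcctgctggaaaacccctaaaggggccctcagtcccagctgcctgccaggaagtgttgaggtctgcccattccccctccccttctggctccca

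Klra4 and Klra8 encode Ly49 receptors, and the 250 bases before their starts aligned over 249 positions with 212 identical (85.1%). Capitals mark the bases that differ from the other gene or have no partner in the alignment. Klra4 lies at chr6:130067272-130067521, minus strand, and Klra8 at chr6:130129899-130130148, minus strand.

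Klra4: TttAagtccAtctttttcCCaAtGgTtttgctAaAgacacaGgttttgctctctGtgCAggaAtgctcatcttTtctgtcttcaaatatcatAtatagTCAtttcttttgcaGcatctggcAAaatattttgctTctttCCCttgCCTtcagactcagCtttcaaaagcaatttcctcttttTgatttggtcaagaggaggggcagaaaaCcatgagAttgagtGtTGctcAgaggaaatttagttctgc

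Klra8: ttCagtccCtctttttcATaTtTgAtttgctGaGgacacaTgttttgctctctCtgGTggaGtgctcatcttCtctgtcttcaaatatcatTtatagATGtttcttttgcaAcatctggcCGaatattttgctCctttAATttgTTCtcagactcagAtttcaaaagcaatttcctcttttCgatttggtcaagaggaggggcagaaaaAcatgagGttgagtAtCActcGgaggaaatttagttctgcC

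Gzmk encodes a granule protease. Capitals in the 250 bases before its RefSeq start (chr13:113180966-113181215, minus strand) mark a CTTTGAA and a GGTGTGA. The gene counted as Gzmk spans 113171608 to 113225908 on the minus strand of chromosome 13, so this window lies inside it and not before its start.

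Gzmk: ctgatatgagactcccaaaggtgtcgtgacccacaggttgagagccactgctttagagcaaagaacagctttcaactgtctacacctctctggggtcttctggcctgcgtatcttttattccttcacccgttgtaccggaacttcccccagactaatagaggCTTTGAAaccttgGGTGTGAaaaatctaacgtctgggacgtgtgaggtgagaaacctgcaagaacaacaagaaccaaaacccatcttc

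Those 2 words are the core of TCF/LEF sites and of T-box sites, the latter the kind that T-bet and Eomes bind. Both were searched on both strands in windows of 250 bases before to 50 after each start, together with AGGTCA, known from Rora and other nuclear receptors, TTCNNNGAA, known from STAT proteins, and GATAAG, known from Gata3 and its relatives. A CTTTGAA can lie within a TTCNNNGAA. RefSeq windows were found for 332 of the 469 genes called higher in cKO iILC1 (427 windows), for 341 of the 454 called lower (428 windows) and for 15832 of the 26987 symbols tested (19626 windows). The share of windows with a match, in the order of higher, lower and all tested, was 3.28%, 5.37%, 3.66% for GGTGTGA and 5.85%, 4.21%, 4.42% for CTTTGAA. It was 6.56%, 5.14%, 6.46% for GATAAG, 13.6%, 15%, 14.5% for AGGTCA and 9.84%, 6.31%, 7.67% for TTCNNNGAA. A match describes the letters of a window and shows no binding.

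The cell types differed widely in cKO marrow. Cxcr6, Tnfrsf25, Ckb and the Tmem176 pair were higher in cKO iILC1, and the Ly49 genes Klra4 and Klra8, the transcription factor Eomes and the granzymes Gzma and Gzmk were lower. Of the 26990 genes tested, 469 were called higher in cKO iILC1 (1.74%) and 454 lower (1.68%), 923 in all (3.42%), by edgeR's quasi-likelihood F test at an adjusted p below 0.05. Among the 11113 genes with a mean of at least 10 CPM over the cKO libraries the share called was 6.45%, with 3.15% higher and 3.30% lower. A change of at least 2-fold was estimated for 689 of the 923. The libraries of both groups did not overlap for 860 of them, against 6.61% of all genes tested. The median log2 fold change over all genes tested was 0.01. Whether each replicate was a mouse of its own is not in the labels, and the spread behind a p-value may be technical. In sorted bulk samples, fewer cells of a type and less RNA per cell cannot be told apart. The higher genes made up 50.8% of the calls, and 42.0% of 1094 calls without iILC1 replicate 1.

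**Figure D1:**
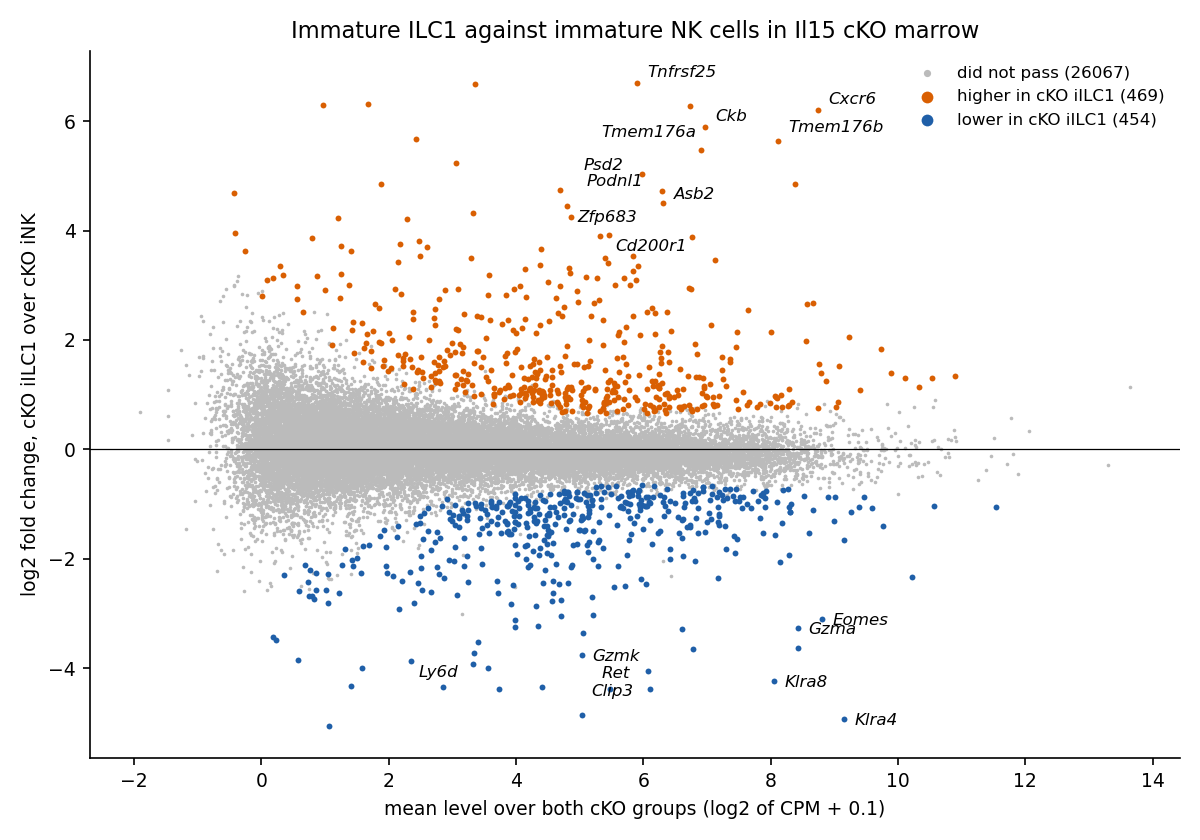
Each point is 1 of the 26990 genes, with its mean level over both cKO groups (log2 of CPM + 0.1) on the x axis and its log2 fold change, cKO iILC1 over cKO iNK, on the y axis. Orange and blue points are the 469 higher and 454 lower genes. Tnfrsf25 lies at 6.70 and Klra4 at −4.93.

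For the 10 largest changes each way, the naming rule took only genes whose cKO libraries did not overlap between the groups. Their separation, described here and below, was fixed by that choice and is no further finding. Tnfrsf25 had the largest increase among the genes that the naming rule allowed. It encodes DR3, a receptor of the TNF family that binds the cytokine TL1A (chromosome 4, 152115934 to 152120119, plus strand). Tnfrsf25 lay at 1.07, 0.971, 0.780 and 1.53 CPM in cKO iNK and at 158, 128, 103 and 85.4 CPM in cKO iILC1. Its mean per kilobase of exon was 0.478 and 52.1 CPM in cKO iNK and cKO iILC1, inside and far above the range of the silent genes, with a log2 fold change of 6.70 (adjusted p = 2.37e-14, SE 0.317). Cxcr6, the receptor for the chemokine CXCL16 (chromosome 9, 123806477 to 123811754, plus strand), lay at 17.3, 15.4, 3.38 and 10.2 CPM in cKO iNK and 1261, 859.7, 646 and 601 CPM in cKO iILC1. The groups were far apart, and the log2 fold change was 6.19 (adjusted p = 3.68e-11, SE 0.434). Ckb, brain-type creatine kinase (chromosome 12, 111669355 to 111672338, minus strand), was at 3.67, 4.71, 3.25 and 4.77 CPM against 369, 252, 178 and 186 CPM. Its log2 fold change was 5.89 (adjusted p = 7.80e-13, SE 0.347).

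The Tmem176 pair moved together. Tmem176b lay at 13.0, 6.93, 10.9 and 12.7 CPM in cKO iNK and 771, 577, 457 and 378 CPM in cKO iILC1, a log2 fold change of 5.64 (adjusted p = 1.04e-13, SE 0.300). Tmem176a lay at 4.28, 5.68, 4.81 and 6.13 against 345, 251, 187 and 159 CPM, a log2 fold change of 5.48 (adjusted p = 1.04e-13, SE 0.290). In both genes iILC1 replicate 1 was the highest library and replicate 4 the lowest of the iILC1 group, and no iNK library came near. The next genes in order were Psd2, an exchange factor for ARF proteins, with 3.77 ± 1.78 CPM in cKO iNK and 122 ± 27.2 CPM in cKO iILC1 (5.04, adjusted p = 1.64e-13), the keratin Krt83 (4.75, adjusted p = 1.51e-09), the extracellular matrix gene Podnl1 (4.73, adjusted p = 1.04e-13) and Asb2, part of a ubiquitin ligase (4.49, adjusted p = 6.66e-10). The rule's last gene in this direction was Zfp683, described with the transcription factors.

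The list of ILC1-associated genes held 22 members. Among them 18 were higher in cKO iILC1, 1 was lower and 3 did not pass (Chn2, Il21r and Cd69), with a median log2 fold change of 1.77, against 1.74% higher among all genes. Such lists were drawn up with results of these data known, so the direction is no independent evidence. Cd200r1, an inhibitory receptor used to recognise ILC1s, lay at 4.13, 10.8, 5.46 and 6.81 CPM in cKO iNK and 123, 75.1, 55.0 and 56.9 CPM in cKO iILC1. Every iILC1 library was above every iNK library, at 3.51 (adjusted p = 9.45e-10, SE 0.292) on the log2 scale. Tnfsf10, the death ligand TRAIL and a marker of immature ILC1s, lay at 46.2, 32.3, 31.6 and 38.5 against 172, 105, 93.1 and 101 CPM. Here the groups were closer but still apart, at 1.66 (adjusted p = 3.17e-06, SE 0.214), and iILC1 replicate 1 stood above the other 3. Beside Cxcr6, Ckb and the Tmem176 pair, the other higher members were Inpp4b (3.87), Il2ra (2.77), Rora (2.14), Gpr55 (2.05), Cd226 (1.87), Cd160 (1.65), Xcl1 (1.59), Cxcr3 (1.40), Ltb (1.24), Ikzf2 (0.95), Cd7 (0.87) and Zfp683, with log2 fold changes in parentheses. The single lower member was Ctla2a, a cysteine protease inhibitor (−2.05).

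**Figure D2:**
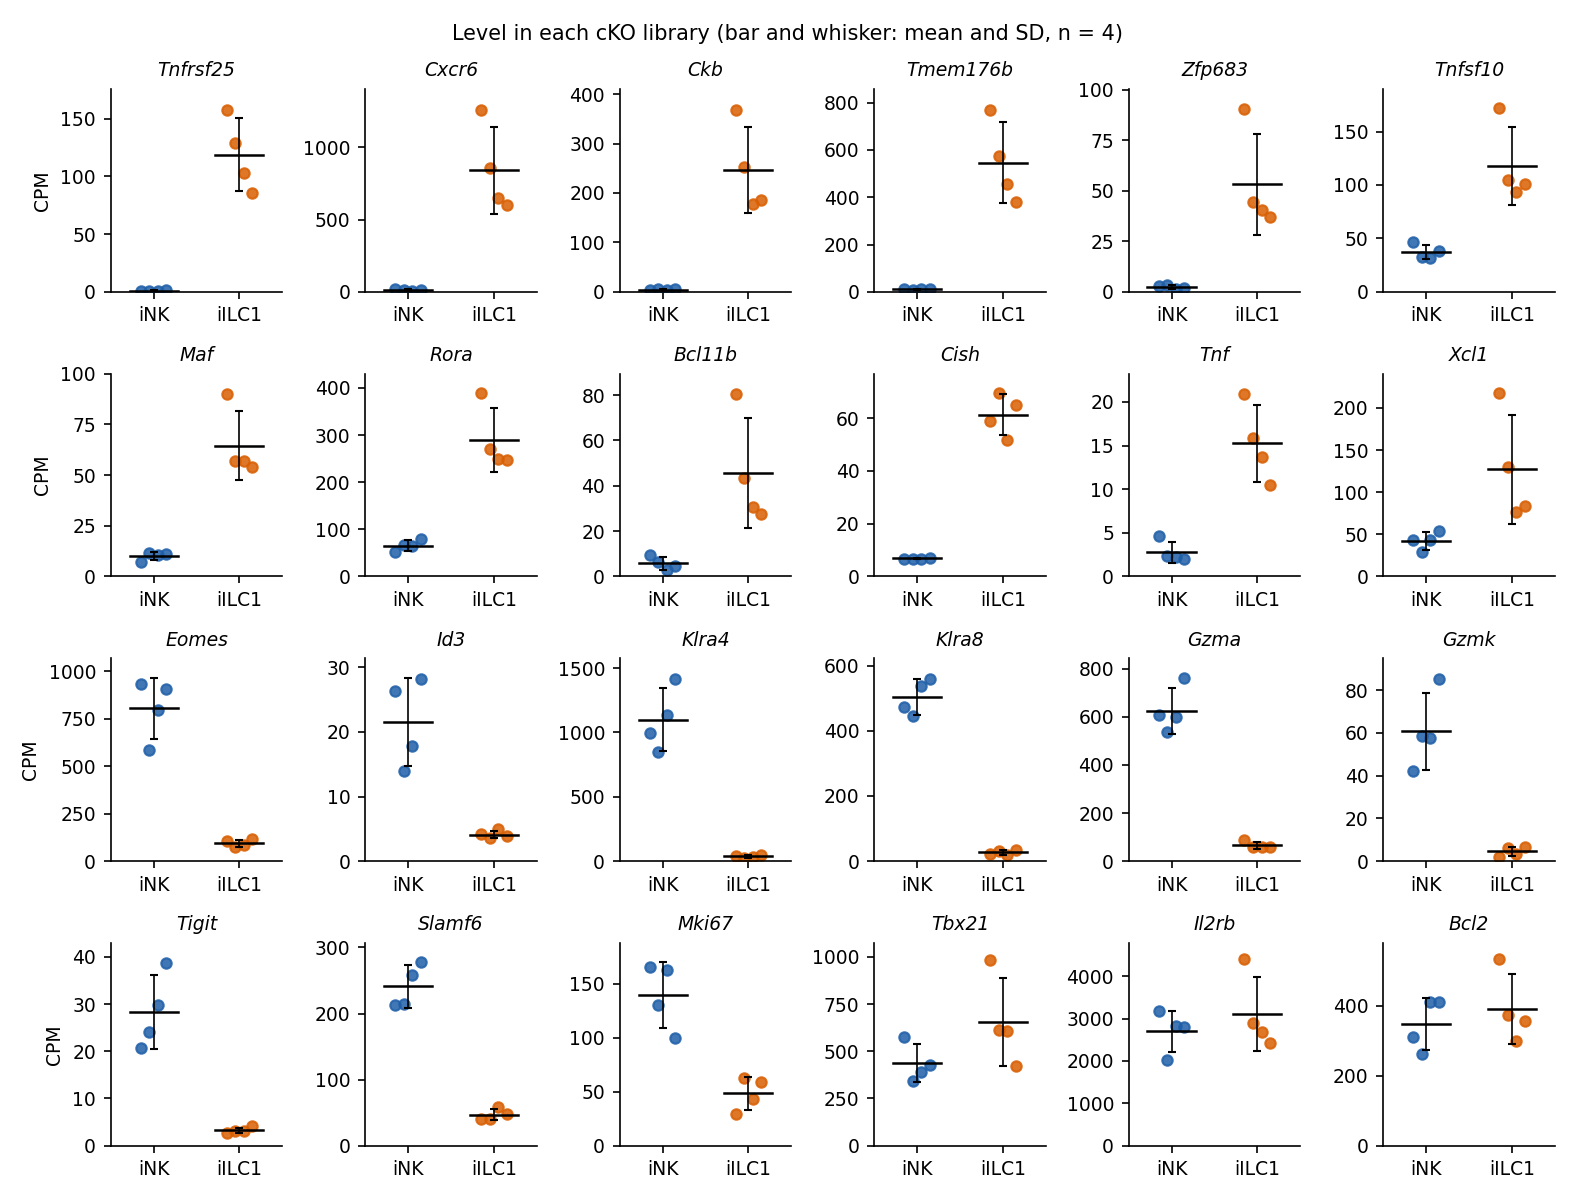
Each panel is 1 gene, with CPM on the y axis from 0 and a point for each of the 4 cKO iNK (blue) and 4 cKO iILC1 (orange) libraries. Bars and whiskers are means and SDs. The groups lie apart in the panels from Tnfrsf25 to Mki67 and overlap for Tbx21, Il2rb and Bcl2.

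The list of NK-associated genes went the other way. Of 25 members, 15 were lower in cKO iILC1, 1 was higher and 9 did not pass, with a median of −1.05, against 1.68% lower among all genes. The higher members numbered 3 with the summed level of silent receptor genes as a covariate. The lower members included Eomes, Gzma, Klra4, Klra8, Klra3, Khdc1a, Klra7, Klra9, S1pr5, Cma1, Zeb2, Prf1, Klf2 and Irf8. The higher one was Ly6c2, a surface antigen that also marks other leukocytes, at 104 and 655 CPM in cKO iNK and cKO iILC1, and its reads may be shared with its near-identical neighbour Ly6c1. The members that did not pass included Klrg1 (0.80), Cx3cr1 (0.35) and Gzmb (−0.17).

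Most Ly49 receptor genes were lower. Of the 12 tested members of the family, 9 were lower in cKO iILC1 and 3 did not pass (Klra5, Klra6 and Klra17), with a median of −2.18. The share called was 75%, against 3.42% of all genes. None was higher in edgeR's test, 0 at an unadjusted p below 0.05 and 0 in DESeq2. Klra4, the activating receptor Ly49D, lay at 996, 846, 1138 and 1417 CPM in cKO iNK and 40.7, 23.5, 34.2 and 46.0 CPM in cKO iILC1. All 4 iILC1 libraries were at a small fraction of any iNK library, a log2 fold change of −4.93 (adjusted p = 1.64e-13, SE 0.271). Klra8, the activating receptor Ly49H that recognises a cytomegalovirus protein, lay at 474, 445, 538 and 561 against 21.9, 30.7, 19.7 and 34.4 CPM. Its libraries were as cleanly separated, at −4.24 (adjusted p = 1.53e-11, SE 0.284). The inhibitory receptor genes Klra3, Klra7 and Klra9 were called at −2.46, −1.89 and −1.81, Klra1 and Klra10 at −1.33 and −2.47, and the pseudogenes Klra13-ps and Klra14-ps at −3.62 and −3.28. The stretches before Klra4 and Klra8, 85.1% identical, lie outside the counted exons and do not show how reads were split. Family members are similar in sequence, and the authors' handling of reads that fit several places is not given in the sources used here. The split of counts between them is therefore uncertain.

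The other large decreases were in genes of mixed function. Ret, a receptor tyrosine kinase for neurotrophic factors of the GDNF family (chromosome 6, 118151748 to 118197744, minus strand), lay at 123, 126, 133 and 124 CPM in cKO iNK, an even level, and at 3.75, 8.69, 6.04 and 11.8 CPM in cKO iILC1. The groups were far apart, at −4.06 (adjusted p = 9.48e-11, SE 0.299). Clip3, a microtubule-binding protein (log2 fold change −4.39, adjusted p = 3.17e-11), the collagen Col8a2 (−4.38, adjusted p = 1.06e-10) and Klhl30 (−4.35, adjusted p = 7.10e-12) were lower as well. Kcnj1, a potassium channel, was at 23.2, 13.6, 18.5 and 19.4 CPM in cKO iNK and 2.30, 0, 0.795 and 2.42 CPM in cKO iILC1, a low but separate range. Cox6a2, a subunit of cytochrome c oxidase, had a log2 fold change of −4.39 (adjusted p = 3.11e-08), but its exons overlap those of Itgad by 270 bases, and the kit does not mark strand. Exons of Cish, Maf, Sox4, Xcl1, Jak1, Il27ra, Pfkp, S100a4 and Vcam1, named below, also overlap those of a neighbouring gene. Ly6d is described with the B-lineage genes.

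Among 40 lineage transcription factors, 8 were higher in cKO iILC1, 9 were lower and 23 did not pass. The share called was 42.5%, against 3.42% of all genes. Eomes (chromosome 9, 118478212 to 118486132, plus strand) lay at 932, 582, 794 and 907 CPM in cKO iNK and 104, 74.0, 85.6 and 114 CPM in cKO iILC1. No library of one group reached the range of the other, and the log2 fold change was −3.09 (adjusted p = 3.58e-10, SE 0.244). Tbx21, the gene of T-bet, which both lineages use, was at 435 ± 101 CPM in cKO iNK and 655 ± 235 CPM in cKO iILC1. Its groups overlapped, and its log2 fold change of 0.59 (adjusted p = 0.383) did not pass, although it was called with the silent receptor genes as a covariate (0.74, adjusted p = 0.000606). Zfp683, the gene of HOBIT, a factor of tissue-resident lymphocytes, lay at 3.06, 3.61, 1.30 and 1.87 CPM in cKO iNK and 90.4, 44.7, 40.6 and 37.1 CPM in cKO iILC1. All iILC1 libraries were higher, replicate 1 most of all, at 4.45 (adjusted p = 8.44e-11, SE 0.325).

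Several of the higher factors are ones known from other helper-type lymphocytes. Maf, a regulator of cytokine genes, lay at 6.88, 11.6, 10.7 and 11.0 CPM in cKO iNK and 90.2, 57.1, 57.1 and 53.9 CPM in cKO iILC1. The groups were apart, at 2.68 (adjusted p = 3.66e-09, SE 0.240). Ahr, a receptor for aryl compounds that supports innate lymphoid cells in mucosal tissue, lay at 15.3, 19.1, 19.1 and 18.7 against 111, 65.3, 66.5 and 76.3 CPM, at 2.14 (adjusted p = 1.73e-08, SE 0.206). Bcl11b, a factor of the T-cell and ILC2 lineages, lay at 9.64, 6.38, 2.86 and 4.43 against 80.5, 43.3, 30.7 and 27.6 CPM, at 2.99 (adjusted p = 2.80e-07, SE 0.335). In all 3 genes iILC1 replicate 1 was the highest of the 8 libraries. Rora, a nuclear receptor needed by ILC2s, was at 65.4 and 289 CPM in cKO iNK and cKO iILC1, with a log2 fold change of 2.14. Ikzf2, the gene of Helios (0.95), and Id2, an inhibitor of E proteins needed by all innate lymphoid cells (1.30), were higher as well.

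The lower factors beside Eomes were Myb (−2.50) and Id3 (−2.40), then Zeb2 (−1.06), Tcf7 (−1.05), Nfkb1 (−0.96), Klf2 (−0.94), Prdm1 (−0.92) and Irf8 (−0.86). In control mice the log2 fold change of Id3 was 0.06. Its difference between genotypes passed (−2.46, adjusted p = 0.0408), a call lost in 10 of 22 alternatives. Zeb2 and Klf2 are known from NK maturation and lymphocyte exit from tissue, and Tcf7 and Myb from progenitors and immature lymphocytes. Gata3 (0.68), Runx3 (−0.41), Tox (−0.64), Nfil3 (−0.52) and Zbtb16 (−0.13), which take part in early ILC and NK development, did not pass.

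Of 31 other lectin-like and activating receptors tested, 10 were higher in cKO iILC1 and 7 lower, against 1.74% and 1.68% of all genes. Klrb1b, an inhibitory NKR-P1 receptor, lay at 89.6, 113, 105 and 134 CPM in cKO iNK and 961, 716, 565 and 577 CPM in cKO iILC1. The lowest iILC1 library was several times the highest iNK library, at 2.67 (adjusted p = 1.38e-09, SE 0.227). Cd226, the activating receptor DNAM-1, was at 75.6 ± 9.50 CPM in cKO iNK and 277 ± 98.4 CPM in cKO iILC1, with a log2 fold change of 1.87 (adjusted p = 8.98e-07). Tigit, an inhibitory receptor that shares ligands with DNAM-1, moved the other way, from 20.8, 24.1, 29.8 and 38.8 CPM in cKO iNK to 2.66, 3.06, 3.18 and 4.07 CPM in cKO iILC1. The groups did not overlap, at −3.13 (adjusted p = 3.54e-08, SE 0.314). Slamf6, a receptor that binds itself on neighbouring cells, was at 241 ± 32.1 CPM in cKO iNK and 47.1 ± 8.06 CPM in cKO iILC1, with a log2 fold change of −2.36 (adjusted p = 1.51e-09).

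The CD94/NKG2 family was split. Klrc1, the inhibitory NKG2A chain, was higher (220.0 and 651 CPM in cKO iNK and cKO iILC1, log2 fold change 1.57), whereas its partner chain Klrd1 (−1.08) and the activating chains Klrc2 (−1.34) and Klrc3 (−1.25) were lower. Klre1 (−1.93), whose product pairs with those of Klri1 and Klri2, was lower, as was Klri2 (−1.65), and Klri1 was higher (1.03). Ncr1, the gene of NKp46 on both lineages, was higher at 856 and 2108 CPM (1.30). The other higher members were Cd160, Ctla4, Slamf7, Icos and Klrb1f. Klrk1, the gene of NKG2D (0.04), and Fcgr3, which encodes CD16 (−0.81), did not pass.

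Of 22 receptor adaptors and proximal signalling genes, 2 were higher (Plcg1 and Vav3) and 5 lower, against 1.74% and 1.68% of all genes. With the summed level of silent receptor genes as a covariate, 5 were higher. The kinase Fyn was at 729 ± 137 CPM in cKO iNK and 296 ± 66.1 CPM in cKO iILC1, with a log2 fold change of −1.30 (adjusted p = 0.000389). The kinase Syk was at 424 ± 76.8 CPM in cKO iNK and 213 ± 36.2 CPM in cKO iILC1, with a log2 fold change of −1.0 (adjusted p = 0.00296). Sh2d1a, the adaptor SAP of SLAM receptors (−1.95, adjusted p = 2.31e-07), Lat2 (−1.24, adjusted p = 0.000111) and Cd247, the zeta chain (−0.81), were lower too. Exons of Sh2d1a overlap those of Tenm1 by 4080 bases and those of Lat2 overlap Rfc2 by 3773 bases, so that reads of these pairs cannot be assigned with certainty. Tyrobp, the adaptor of Ly49D and Ly49H, did not pass (−0.69).

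Cytotoxic genes were lower in part. Of 20 tested members of the list, 7 were lower in cKO iILC1 and 1, Tnfsf10, was higher, with a median of −0.23. Among all genes 1.68% were lower and 1.74% higher. Gzma, granzyme A (chromosome 13, 113093825 to 113100979, minus strand), lay at 606, 535, 601 and 761 CPM in cKO iNK and 87.1, 59.6, 56.5 and 58.1 CPM in cKO iILC1. The lowest iNK library was several times the highest iILC1 library, and the log2 fold change was −3.26 (adjusted p = 1.03e-10, SE 0.242). Gzmk, granzyme K, whose bases before the RefSeq start are shown above, lay at 42.1, 58.5, 57.4 and 85.4 against 1.94, 6.25, 3.18 and 6.61 CPM. No iILC1 library reached the iNK range, at −3.75 (adjusted p = 6.30e-10, SE 0.306). Gzmb, granzyme B, did not pass, at 21.5 ± 5.69 CPM in cKO iNK and 19.2 ± 3.79 CPM in cKO iILC1. Its log2 fold change was −0.17 (adjusted p = 0.968) in cKO and −1.41 in control (adjusted p = 0.000785), with an adjusted p = 0.36 for the difference between both.

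Prf1, the pore-forming protein perforin, was lower (323 and 156 CPM in cKO iNK and cKO iILC1, log2 fold change −1.05), and so was Gzmm (−0.99). The protease inhibitors Serpinb9, Serpinb9b and Serpinb6b, some of which shield the killer cell from its own granzymes, were lower at −0.87, −1.55 and −1.08. Fasl (0.00), Nkg7 (−0.48), Ctsw (0.17) and the granule release factors Rab27a (−0.13), Unc13d (−0.17) and Stx11 (0.24) did not pass.

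**Figure D3:**
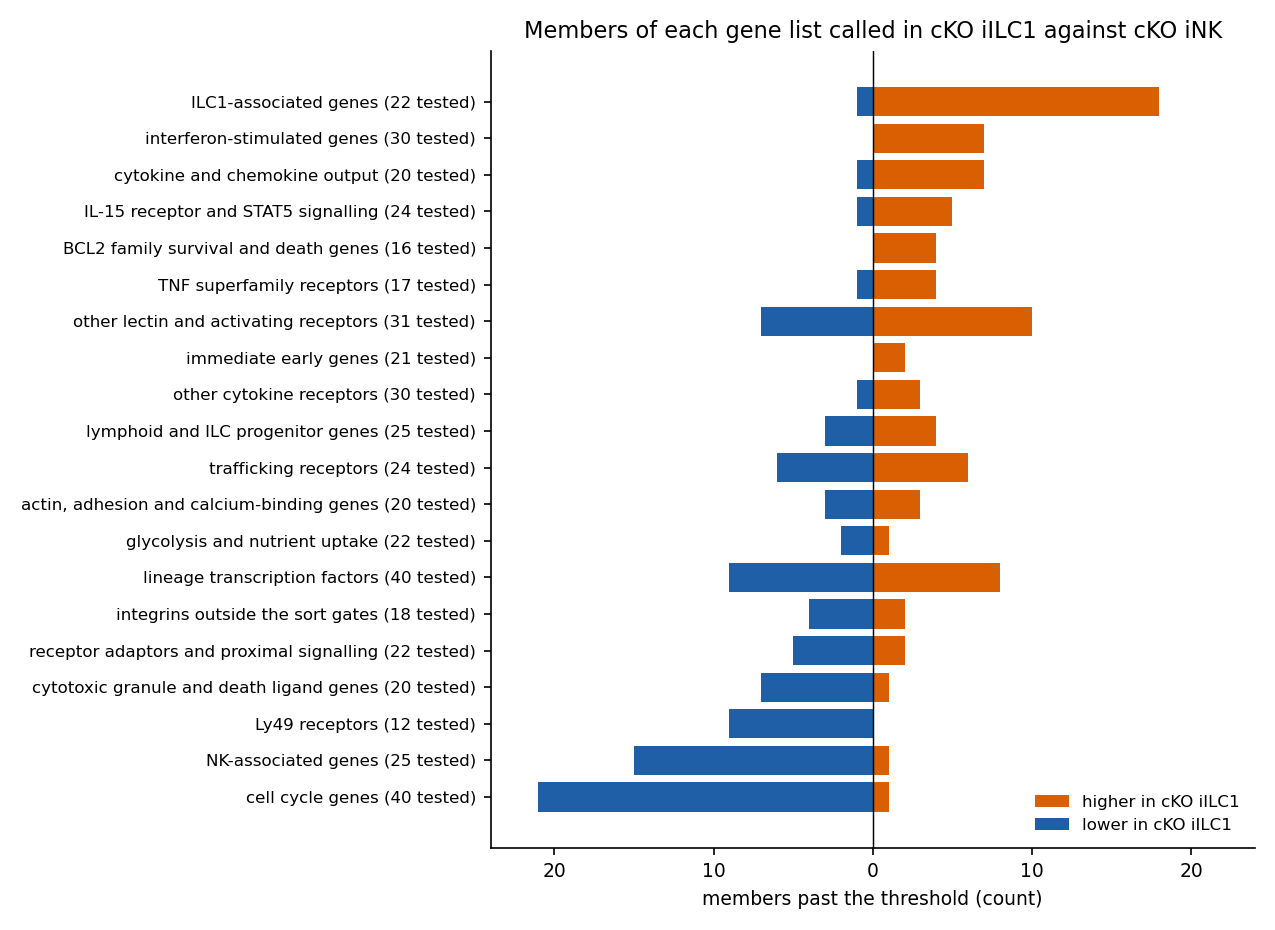
Bars give, for each of 20 gene lists, the number of members called higher (orange, to the right) and lower (blue, to the left) in cKO iILC1 against cKO iNK, with the number tested in parentheses. The ILC1-associated list has 18 higher and 1 lower, the cell cycle list 1 higher and 21 lower. The share of tested members called runs from 9.52% (immediate early genes) to 86.4% (ILC1-associated genes), against 3.42% of all genes.

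In the list of 24 genes of IL-15 receptor and STAT5 signalling, 5 were higher in cKO iILC1, 1 was lower and 18 did not pass. The share called was 25%, against 3.42% of all genes. The receptor chain Il2rb was abundant in both groups, at 2704 ± 486 CPM in cKO iNK and 3107 ± 883 CPM in cKO iILC1. Its groups overlapped and the log2 fold change of 0.20 (adjusted p = 0.962) did not pass, and neither did Il2rg (0.62), Il15ra (0.09), Jak3 (0.23), Stat5a (−0.36) and Stat5b (−0.30). Among the called genes are known targets of STAT5. Cish, a feedback inhibitor of cytokine receptors, lay at 6.73, 6.79, 6.76 and 7.15 CPM in cKO iNK, a narrow range, and at 59.0, 69.4, 51.9 and 65.2 CPM in cKO iILC1. The gap was many times the spread, at 3.16 (adjusted p = 1.92e-10, SE 0.242). Socs2, another feedback inhibitor, lay at 15, 11.6, 11.3 and 10.7 against 134, 92.9, 73.5 and 91.1 CPM, at 3.01 (adjusted p = 6.37e-11, SE 0.216).

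Il2ra, the chain that gives the IL-2 receptor its high affinity, lay at 3.52, 7.49, 6.11 and 7.84 CPM in cKO iNK and 54.1, 43.8, 44.1 and 30.8 CPM in cKO iILC1. Again no iNK library reached the iILC1 range, at 2.77 (adjusted p = 4.27e-08, SE 0.282). Socs1 (1.08) and the kinase Pim2 (0.79) completed the higher members, and 3 members were called without iNK replicate 1. Jak1, the kinase bound to Il2rb, was the lower one, at 3994 ± 659.8 CPM in cKO iNK and 1931 ± 487 CPM in cKO iILC1 with a log2 fold change of −1.05 (adjusted p = 0.0206), and this call was lost without iNK replicate 1 (adjusted p = 0.0776), iNK replicate 3 (adjusted p = 0.0648), iILC1 replicate 2 (adjusted p = 0.0597) or iILC1 replicate 3 (adjusted p = 0.0811). In control mice Cish and Socs2 had log2 fold changes of 1.91 and 2.09, and the difference from cKO did not pass (adjusted p = 0.407 and 0.623).

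Of 16 tested BCL2 family genes, 4 were higher in cKO iILC1 (25%, against 1.74% of all genes) and 12 did not pass. None was lower in edgeR's test, 0 at an unadjusted p below 0.05 and 0 in DESeq2. Bcl2l1, the gene of the survival protein BCL-XL, lay at 52.5, 39.7, 35.9 and 41.2 CPM in cKO iNK and 128, 89.4, 69.4 and 75.0 CPM in cKO iILC1. The groups were apart, at 1.1 (adjusted p = 0.00124, SE 0.213). In control mice the estimate was −0.12, and the difference between genotypes did not pass (adjusted p = 0.359). Bcl2a1d, one of several near-identical A1 survival genes, was at 1.96 ± 0.959 CPM in cKO iNK and 14.9 ± 6.79 CPM in cKO iILC1, with a log2 fold change of 2.93 (adjusted p = 4.62e-06). Bcl2a1b and Bik, a death-promoting member, were called on few reads, 11 and 7 counts over the 4 iNK libraries against 100 and 134 over the 4 iILC1 libraries, and both lay below the upper level of silent genes per kilobase. Bcl2, which IL-15 supports in mature NK cells, was at 349 ± 74.5 CPM in cKO iNK and 391 ± 99.9 CPM in cKO iILC1, with a log2 fold change of 0.17 (adjusted p = 0.967), and Mcl1 (−0.07) and Bcl2l11, the gene of BIM (−0.26), did not pass. With the filter at 5 CPM, 2 members were called.

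Several cytokine genes were higher in cKO iILC1. Of 20 tested members of the list, 7 were higher and 1 lower, against 1.74% and 1.68% of all genes, with a median of 0.79. Ifng lay at 4.59, 4.44, 4.81 and 9.88 CPM in cKO iNK and 46.5, 25.5, 22.9 and 17.3 CPM in cKO iILC1. The levels were low, and the highest iNK library stayed below the lowest iILC1 library, at 2.21 (adjusted p = 4.27e-05, SE 0.335). Tnf lay at 4.59, 2.36, 2.21 and 1.96 against 21, 15.9, 13.7 and 10.4 CPM, also apart, at 2.47 (adjusted p = 6.97e-06, SE 0.334). Tnfsf14, the ligand LIGHT of the lymphotoxin beta receptor, lay at 28.1, 25.1, 26.1 and 27.4 against 111, 79.8, 62.4 and 62.9 CPM, at 1.57 (adjusted p = 3.98e-06, SE 0.204). Xcl1, a chemokine that attracts cross-presenting dendritic cells, was at 42.1 ± 10.4 CPM in cKO iNK and 127 ± 64.8 CPM in cKO iILC1, with a log2 fold change of 1.59 (adjusted p = 0.0005). The lymphotoxin genes Lta (1.70) and Ltb (1.24) and the CD30 ligand Tnfsf8 (1.13) were higher as well. Ccl3, a chemokine for macrophages and other leukocytes, was the lower member (−1.45), a call lost in DESeq2 and without iNK replicate 1 or iILC1 replicate 3. Ccl4 (−0.44) and Ccl5 (−0.14) did not pass.

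TNF receptor family genes and cytokine receptors differed in a few members. Of 17 TNF receptor genes, 4 were higher and 1 lower. Beside Tnfrsf25 these were the costimulatory receptors Tnfrsf18 (GITR, 1.34, adjusted p = 0.00104) and Tnfrsf9 (4-1BB, 1.23, adjusted p = 0.00124) and the lymphotoxin receptor Ltbr (1.66). The exons of Tnfrsf18 overlap those of Gm16008 by 1732 bases. The lower one was Tnfrsf13b, a receptor of B-lineage cells, at 36.5 ± 4.86 CPM in cKO iNK and 11.1 ± 4.65 CPM in cKO iILC1 with a log2 fold change of −1.72 (adjusted p = 2.25e-05). Of 30 other cytokine receptors, 3 were higher, namely Il27ra (1.46, adjusted p = 0.000158), Il12rb1 (0.92, adjusted p = 0.00505) and Il4ra (0.86, adjusted p = 0.0327), and Il10ra was lower (−1.14, adjusted p = 0.00118), against 1.74% higher and 1.68% lower among all genes. With the silent receptor genes as a covariate, 8 were higher and 2 lower. The Il4ra call was lost without iNK replicate 2 (adjusted p = 0.0693), iNK replicate 3 (adjusted p = 0.0550) or iNK replicate 4 (adjusted p = 0.0655). It was also lost without control iNK replicate 1 and cKO iILC1 replicate 1 together (0.61, adjusted p = 0.104). The receptors for IL-18 (Il18r1, 0.12) and IL-12 (Il12rb2, 0.23) did not pass, and neither did Tgfbr1 (−0.21) or Tgfbr2 (0.34).

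Trafficking receptors were split evenly, with 6 of 24 tested higher in cKO iILC1 and 6 lower, against 1.74% and 1.68% of all genes. The lymph node homing receptor Ccr7 (−2.12), the exit receptors S1pr1 (−0.93) and S1pr5 (−1.74), and the inflammatory receptor Ccr2 (−1.41) were among the lower ones. Gpr183, a receptor for oxysterols, lay at 21.3, 21.9, 28.1 and 27.2 CPM in cKO iNK and 174, 136, 107 and 144 CPM in cKO iILC1, without overlap, at 2.51 (adjusted p = 1.51e-09, SE 0.215). Gpr15, a homing receptor for the large intestine, was at 0.721 ± 0.138 CPM in cKO iNK and 7.94 ± 0.737 CPM in cKO iILC1, with a log2 fold change of 3.43 (adjusted p = 1.93e-07). Cxcr6, Ccr8 (1.42), Cxcr3 (1.40) and Ccrl2 (1.04) were the other higher members, and Cxcr4, the receptor for CXCL12 in marrow, did not pass (−1.0).

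Of 18 integrin genes outside the gates, 2 were higher and 4 lower, against 1.74% and 1.68% of all genes. The higher members numbered 4 when the silent receptor genes were a covariate. Itgb3 was at 71.3 ± 17.7 CPM in cKO iNK and 229 ± 58.0 CPM in cKO iILC1, with a log2 fold change of 1.69 (adjusted p = 3.15e-05), and Itgb7, the partner of Itga4 in gut homing, at 433 ± 74.6 CPM in cKO iNK and 918 ± 277 CPM in cKO iILC1, with a log2 fold change of 1.08 (adjusted p = 0.00429). Itgax, the gene of CD11c, was lower at 401 ± 87.8 CPM in cKO iNK and 135 ± 36.8 CPM in cKO iILC1, with a log2 fold change of −1.57 (adjusted p = 0.000109), and Itgad (−1.0, adjusted p = 0.00177), Itgb1 (−1.04) and Itga4 (−0.85) were lower as well. The lower members numbered 2 without iNK replicate 1, iNK replicate 3, iILC1 replicate 2 or iILC1 replicate 3.

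Many cell cycle genes were lower in cKO iILC1. Of 40 members, 21 were lower, 1 was higher and 18 did not pass, with a median of −0.91, against 1.68% lower among all genes. Mki67, the gene of the proliferation antigen Ki-67 (chromosome 7, 135689788 to 135716379, minus strand), lay at 165, 130.5, 162 and 99.9 CPM in cKO iNK and 29.7, 63.1, 42.9 and 58.7 CPM in cKO iILC1. The lowest iNK library was above the highest iILC1 library, at −1.52 (adjusted p = 0.000289, SE 0.262). Ccnb1, the cyclin of mitotic entry, lay at 35.0, 37.0, 30.9 and 41.2 against 3.51, 7.96, 6.2 and 13.7 CPM, at −2.20 (adjusted p = 6.71e-05, SE 0.342). The spindle motor Kif11 (−1.68, adjusted p = 3.61e-05), the mitotic kinase Plk1 (−1.76, adjusted p = 9.61e-05) and the transcription factor E2f2 (−1.65, adjusted p = 9.23e-05) were lower as well. The called members were mostly genes of mitosis (Ccnb2, Ccna2, Birc5, Cdc20, Aurkb, Aurka, Bub1, Bub1b, Kif20a, Tpx2, Foxm1 and Top2a) with some of the S phase and its entry (E2f1, Ccne1, Rrm2 and Cdc6). The 6 MCM helicase genes listed, at −0.72 to −0.32, did not pass. In iILC1 replicate 1 the levels of Ccnb1, Kif11 and Mki67 were the lowest of all 8 libraries. The single higher gene was the G1 cyclin Ccnd3 (0.76). Its call was lost with RLE size factors, without the filter on low counts, and without iNK replicate 1, 2 or 3. The same held without control iNK replicate 1 and cKO iILC1 replicate 1 together.

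Some interferon-stimulated genes were higher, 23.3% of the list against 1.74% of all genes. Of 30 members, 7 were higher in cKO iILC1 and 23 did not pass, with a median of 0.24, and 4 were higher without iNK replicate 3. None was lower in edgeR's test, 1 at an unadjusted p below 0.05 and 0 in DESeq2. Igtp, an interferon gamma-induced GTPase, lay at 60.4, 51.2, 38.0 and 62.9 CPM in cKO iNK and 223, 175, 173 and 139.8 CPM in cKO iILC1. The ranges were well apart, at 1.74 (adjusted p = 7.12e-07, SE 0.206), and the exons of Igtp overlap those of Irgm2 by 486 bases. Isg15, a ubiquitin-like modifier, lay at 0.306, 0.693, 0.910 and 2.21 against 11.7, 6.12, 5.09 and 8.90 CPM, low in both groups, at 2.84 (adjusted p = 7.64e-05, SE 0.446). Ifit1 (1.34, adjusted p = 0.00137), Oas1a (1.1, adjusted p = 0.00388), Bst2 (0.88) and Gbp2 (0.77) were higher as well. The median of the list in control mice was −0.01. The difference between genotypes did not pass for Isg15 (adjusted p = 0.128) or Igtp (adjusted p = 0.407).

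Progenitor and cytoskeletal genes were called in both directions, 28% and 30% of the members tested, against 3.42% of all genes. Of 25 lymphoid and ILC progenitor genes, 4 were higher (Ly6a, Cxcr6, Itgb7 and Id2) and 3 lower (Ly6d, Sox4 and Tcf7), with 5 lower without iILC1 replicate 1 and 7 higher with the silent receptor genes as a covariate. Ly6a, the gene of Sca-1, lay at 1.38, 3.33, 3.51 and 3.75 CPM in cKO iNK and 28.7, 31.0, 49.9 and 45.6 CPM in cKO iILC1, clearly apart, at 3.66 (adjusted p = 4.10e-10, SE 0.292). Sox4, a factor of early lymphocytes, was lower, at 39.9 ± 4.79 CPM in cKO iNK and 9.27 ± 2.20 CPM in cKO iILC1 with a log2 fold change of −2.10 (adjusted p = 1.84e-05). Of 20 actin, adhesion and calcium-binding genes, 3 were higher and 3 lower, with 1 higher without iNK replicate 3 and 6 without iILC1 replicate 4. The higher members numbered 8 with the silent receptor genes as a covariate, 7 with the filter at 5 CPM and 5 with DESeq2. S100a6, a calcium-binding protein, was at 3.82, 4.71, 4.55 and 6.13 CPM in cKO iNK and 62.9, 51.8, 25.1 and 21.7 CPM in cKO iILC1, at 3.05 (adjusted p = 5.92e-08, SE 0.315). S100a4 (1.91, adjusted p = 0.0215) was called on low levels, and that call was lost without iNK replicate 2 (adjusted p = 0.0704), iNK replicate 3 (adjusted p = 0.0872) or iILC1 replicate 3 (adjusted p = 0.0635). Thy1, a surface glycoprotein of T cells and innate lymphoid cells, was higher (0.96, adjusted p = 0.0444). The filament protein Vim (−1.06, adjusted p = 0.00167), the lectin Lgals1 (−1.32, adjusted p = 0.0031) and the membrane-binding Anxa2 (−0.86, adjusted p = 0.0234) were lower.

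Metabolic and immediate early genes passed the test at 13.6% and 9.52% of the members tested. The share was 3.42% of all genes and 6.45% of those with a mean of at least 10 CPM. Of 22 glycolysis and nutrient uptake genes, 2 were lower and 1 higher, and 6 were higher with the silent receptor genes as a covariate. Tfrc, the transferrin receptor that takes up iron, was at 48.9 ± 5.39 CPM in cKO iNK and 21.9 ± 3.60 CPM in cKO iILC1, with a log2 fold change of −1.16 (adjusted p = 0.000162). The lactate exporter Slc16a3 was higher (1.46, adjusted p = 0.00174) at a level below the upper level of silent genes per kilobase. The glycolytic enzyme Pfkp was at the threshold (−0.73, adjusted p = 0.04995), and its call was lost with RLE size factors, without the filter on low counts and in 6 of 8 leave-outs, all but those of iNK replicate 2 and iILC1 replicate 1. Of 21 tested immediate early genes, 2 were higher, the NF-κB inhibitors Nfkbia (0.82, adjusted p = 0.0223) and Tnfaip3 (0.80, adjusted p = 0.0357). Neither was called without iNK replicate 1, and 1 was called without iNK replicate 2 or iNK replicate 3. Both calls were also lost without control iNK replicate 1 and cKO iILC1 replicate 1 together (adjusted p = 0.0558 and 0.110). Fos (−1.19), Egr1 (−0.78) and Nr4a1 (−0.73) did not pass.

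Markers of other cells moved with the comparison in several places, with 0% to 50% of a list called against 3.42% of all genes. Of 19 B-cell and plasma cell markers, 7 were lower in cKO iILC1 and 2 higher. The lower ones included Fcmr (−3.52), Cd79a (−3.22), Fcrla (−2.26), Cd79b (−2.15), Ms4a1 (−1.02) and Cd22 (−0.98), of the B-cell receptor complex and B-cell surface. The higher ones were Cd74 and H2-Aa, of MHC class II presentation, at 0.84 and 0.81. The number of higher ones was 0 without iNK replicate 1 or iILC1 replicate 3, 1 without iNK replicate 2, 3 or 4, and 4 without iILC1 replicate 4. The summed level of the whole list was 511 to 708 CPM in cKO iNK and 546 to 787 CPM in cKO iILC1 (exact permutation test, two-sided, p = 0.4), against 107 to 126 and 272 to 378 CPM in the controls. Split after its values were seen, the 15 members outside class II summed to 255 to 341 CPM in cKO iNK, 77.6 to 141 CPM in cKO iILC1 and 79.2 to 95.2 CPM in control iNK. The 4 class II members summed to 256 to 378, 437 to 660.1 and 27.8 to 38.6 CPM in the same groups. No member was at 0 in all 8 libraries. Whether B-lineage cells or their RNA take part in the differences from cKO iNK was not tested.

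T-cell markers were mixed. Of 18 tested, 7 were higher in cKO iILC1 and 2 lower, 1 without iNK replicate 1. Tcrg-C4, a constant segment of the T-cell receptor gamma chain that innate lymphocytes can transcribe, lay at 2.91, 3.74, 1.82 and 2.47 CPM in cKO iNK and 328, 205, 158 and 149 CPM in cKO iILC1. This was among the widest gaps of all, at 6.27 (adjusted p = 1.33e-13, SE 0.339). Tcrg-C2 (5.68), Tcrg-C1 (2.44), Cd3e (2.94), Cd4 (1.81), Trbc2 (1.31) and Bcl11b were higher, and the delta constant segment Trdc (−1.54) and Cd247 were lower. Cd3d (−0.13), Cd3g (0.80), Trac (−0.15) and Trbc1 (−0.24), which T cells also use, did not pass. The summed level of the list was 705 to 892 CPM in cKO iNK and 795 to 1566 CPM in cKO iILC1 (exact permutation test, two-sided, p = 0.229). Without scaling factors the ranges did not overlap, at 805 to 837 against 915 to 1258 CPM (exact permutation test, two-sided, p = 0.0286). Both gates excluded CD3 on the surface, and the part of T cells in these values was not tested.

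Some markers of other innate lymphoid cells were higher. Of 14 tested ILC2 markers, 3 were higher and 11 did not pass, and of 10 tested ILC3 markers 4 were higher and 6 did not pass. Arg1, arginase 1, which ILC2s and immature innate lymphoid cells can express, lay at 4.59, 7.90, 3.25 and 5.96 CPM in cKO iNK and 130.1, 76.7, 66.8 and 57.5 CPM in cKO iILC1. The ranges were far apart, at 3.92 (adjusted p = 4.10e-10, SE 0.313). Cysltr1, a leukotriene receptor, was higher (2.12, adjusted p = 0.00212) at a low level, and Icos was the third. Defining ILC2 genes did not pass, with Gata3 at 0.68, Il1rl1 at 0.25, Ptgdr2 at 0.68 and Il17rb at −0.17. The higher ILC3 members included Gpr183, Cd4 and Ncr1, whereas Il23r (−0.43), Ccr6 (−1.02) and Il17a (0.07) did not pass. The summed levels were 153 to 194 against 299 to 489.7 CPM for the ILC2 list and 724 to 1152 against 1859 to 3349.9 CPM for the ILC3 list. Each gave p = 0.0286 in the exact permutation test (two-sided), the smallest that 4 against 4 libraries allow. All marker lists were drawn up with results of these data known, so such p-values are no independent evidence. Ncr1, which both NK cells and ILC1s express, made up most of the ILC3 sum, with 646 to 1074 CPM in cKO iNK and 1683 to 3106 CPM in cKO iILC1. The other 9 tested members summed to 73.0 to 78.1 against 176 to 243 CPM. Among these, Gpr183 alone had means of 24.6 CPM in cKO iNK and 140 CPM in cKO iILC1. The part of ILC2s and ILC3s in the differences was not tested.

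The remaining marker lists ran from 0% of members called to 35.3% for dendritic cell markers, against 3.42% of all genes. Erythroid and stroma markers were at 6.67% and 7.14%, beside 6.45% of genes with a mean of at least 10 CPM. Of 19 tested monocyte, macrophage and granulocyte markers, 3 were higher, among them the complement genes C1qb, at 0.153, 1.53, 1.56 and 0.511 CPM in cKO iNK and 31.6, 17.3, 9.07 and 17.3 CPM in cKO iILC1 (4.33, adjusted p = 3.01e-07), and C1qa (1.72, adjusted p = 0.00178), beside Retnlg. The list summed to 69.1 to 546 against 156 to 436 CPM, with Lyz2, Csf1r and Adgre1 not passing, and 2 of its members were called lower without iILC1 replicate 3. Of 17 dendritic cell markers, 4 were lower and 2 higher, and all 6 (Cox6a2, Ly6d, Itgax and Irf8, and Bst2 and H2-Aa) stand in other groups above. The higher ones numbered 0 without iNK replicate 1 or 2, 1 without iNK replicate 3 or 4 or iILC1 replicate 2 or 3, and 4 without iILC1 replicate 4. The list summed to 865 to 1241 against 639.7 to 907 CPM. Of 15 erythroid markers 1 was lower (Tfrc), 3 without iNK replicate 2, 7 without iILC1 replicate 3, 6 without the low-count filter and 5 with the replicate block, and the median was −1.16. The list summed to 347 to 963 against 285 to 557 CPM. Of 14 stroma and endothelium markers, Vcam1 was higher (1.15, adjusted p = 0.0141), a call lost without iNK replicate 1 (adjusted p = 0.0829) or iNK replicate 4 (adjusted p = 0.0968), and the list summed to 283 to 359 against 375 to 453 CPM (exact permutation test, two-sided, p = 0.0286). Without scaling factors the stroma sums overlapped, at 266 to 416 against 364 to 484 CPM (exact permutation test, two-sided, p = 0.0857). The part of these cells in the differences was not tested. None of 9 mast cell and basophil markers or 12 megakaryocyte and stem cell markers was called in edgeR's test or in DESeq2, with 2 of each list higher at an unadjusted p below 0.05, and 1 mast cell marker was called higher without iILC1 replicate 1 or iILC1 replicate 3.

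The same contrast was made in control mice. Of the 26990 genes, 1056 (3.91%) were called between control iILC1 and control iNK, 246 higher (0.911%) and 810 lower (3.00%). Both contrasts called 158 genes higher, which is 33.7% of the 469 in cKO and 64.2% of the 246 in control, and 284 genes lower, 62.6% of the 454 and 35.1% of the 810. A single gene, Scd1, was called in opposite directions. Of the 20 genes with the largest changes in cKO, 19 had the same sign in control, with log2 fold changes there of 4.93 for Tnfrsf25, 5.09 for Cxcr6, 4.49 for Tmem176b, −4.90 for Klra4 and −3.93 for Klra8. The exception was Ly6d, at −3.92 in cKO and 1.1 in control. The difference between genotypes passed for Ly6d (adjusted p = 0.000997) and Psd2 (adjusted p = 0.0157). For the other 18 its adjusted p was 0.407 to 0.989.

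**Figure D4:**
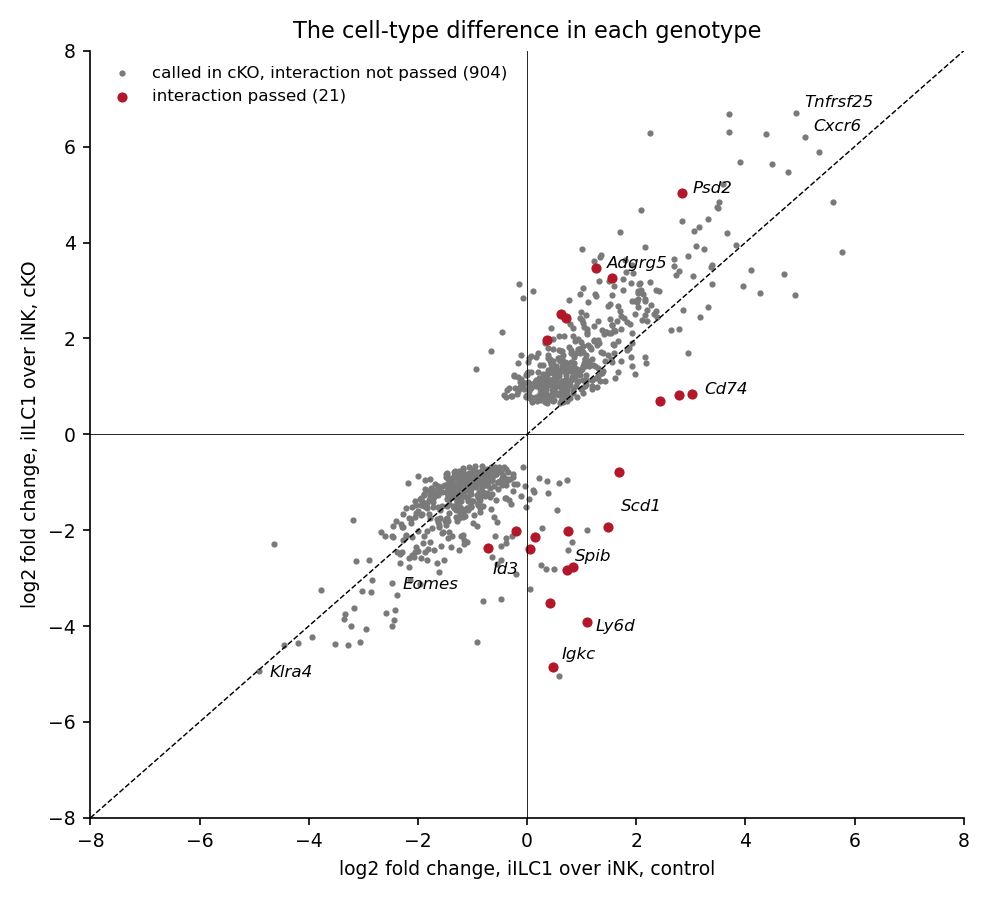
Each point is a gene called in cKO (grey) or with a passing interaction (red), with its log2 fold change, iILC1 over iNK, in control on the x axis and in cKO on the y axis. The dashed line marks equal values. Ly6d and Igkc lie far below the line and Adgrg5 and Psd2 above it.

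Whether the difference between cell types itself changed with genotype was tested as an interaction. It passed for 21 genes (0.0778%), 6 with a more positive difference in cKO (0.0222%) and 15 with a more negative one (0.0556%), and 1903 genes had an unadjusted p below 0.05. Of the 923 genes called in cKO, 19 were among the 21. Ly6d, a marker of early B-lineage commitment, lay at 16.2, 12.9, 18.5 and 26.7 CPM in cKO iNK and 1.45, 0.612, 2.54 and 0.381 CPM in cKO iILC1, against 1.09, 1.47 and 0.960 CPM in control iNK and 3.80, 2.19 and 1.83 CPM in control iILC1. The cKO iNK libraries were the high ones, above every library of the other 3 groups. The log2 fold change was −3.92 in cKO and 1.1 in control, an interaction of −5.02 (SE 0.696, adjusted p = 0.000997).

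Spib, a transcription factor of B cells and plasmacytoid dendritic cells, had an interaction of −3.55 (SE 0.589, adjusted p = 0.00633), and Scd1, a fatty acid desaturase, of −3.43 (SE 0.520, adjusted p = 0.00199), the latter at levels below the upper level of silent genes per kilobase. Cd74 differed in that both cKO groups were high. It lay at 192, 144, 189 and 205 CPM in cKO iNK and 372, 342, 348 and 243 CPM in cKO iILC1, against 13.0, 18 and 11.7 and 154, 114 and 79.1 CPM in the control groups. The iILC1 libraries were above the iNK libraries in both genotypes, but by 0.84 in cKO and by 3.02 in control, an interaction of −2.18 (SE 0.344, adjusted p = 0.00318). The call of Cd74 within cKO was lost without iNK replicate 1 (adjusted p = 0.0509), iNK replicate 3 (adjusted p = 0.0584) or iILC1 replicate 3 (adjusted p = 0.0542).

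Adgrg5, an adhesion G protein-coupled receptor, was the leading gene with a wider gap in cKO. It lay at 30.4, 24.5, 20.4 and 17.5 CPM in cKO iNK and 346, 222, 205 and 252 CPM in cKO iILC1, against 98.5, 93.3 and 111 CPM in control iNK and 268, 206 and 258 CPM in control iILC1. The iILC1 groups overlapped between genotypes, and the cKO iNK libraries were below all control iNK libraries. The log2 fold change was 3.47 (adjusted p = 1.20e-11, SE 0.229) in cKO and 1.27 in control, an interaction of 2.20 (SE 0.322, adjusted p = 0.00185). For Ly6d, Igkc, Spib and Scd1 too, the cKO iNK libraries were the ones that stood apart from control iNK. The summed B-lineage markers outside class II given above were high in cKO iNK, like Ly6d, Igkc, Spib and Scd1 and unlike Adgrg5. That sum includes Cd79b and Fcmr, which passed the interaction test themselves, and its part in the result was not tested.

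**Figure D5:**
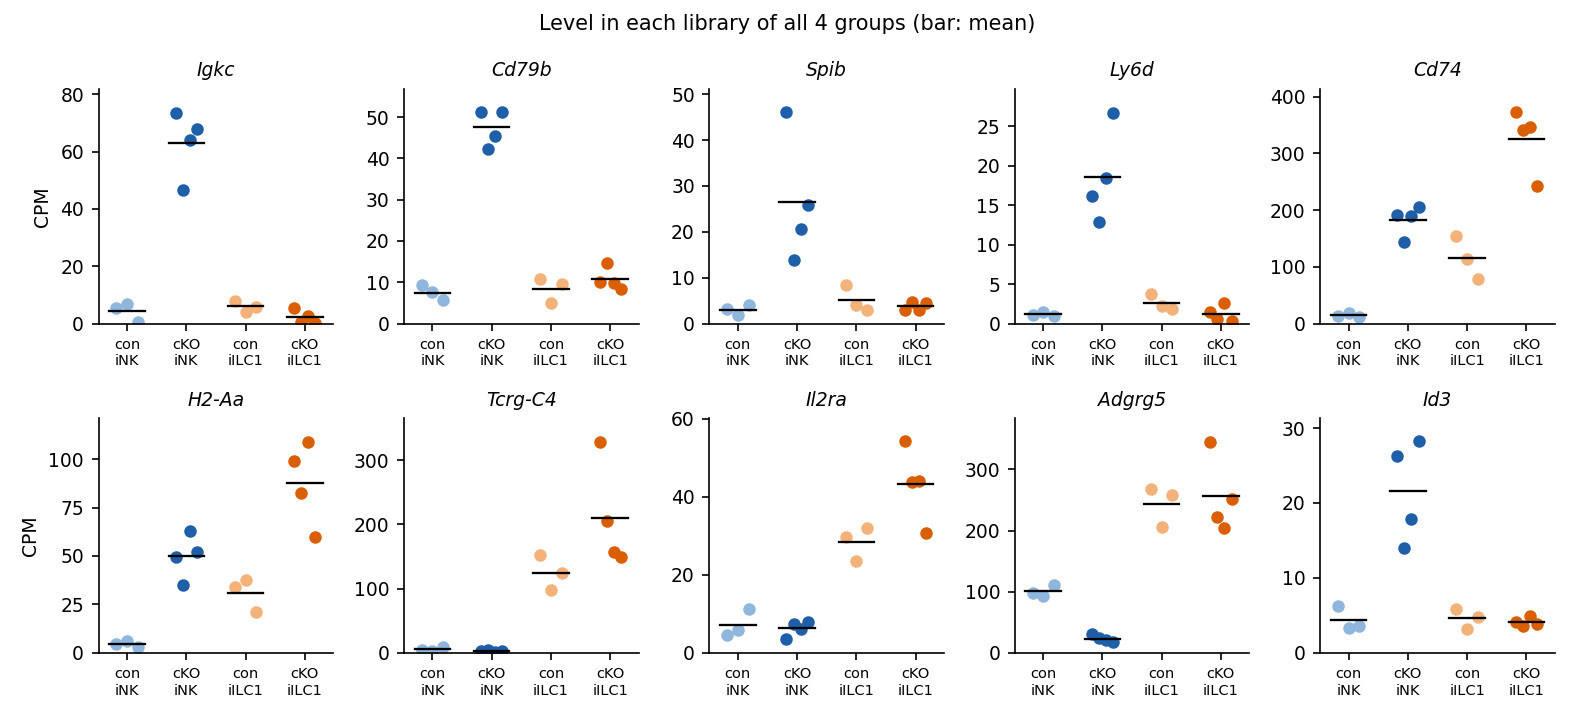
Each panel is 1 gene, with CPM on the y axis from 0 and a point for each of the 14 libraries, grouped by cell type and genotype. Bars are means. Igkc, Cd79b, Spib, Ly6d and Id3 are high in cKO iNK alone, and Tcrg-C4, Il2ra and Adgrg5 are high in both iILC1 groups.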

How the data were processed

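RNA of 2000 sorted cells per sample was made into cDNA with SMART-Seq v4 and tagged with Nextera XT, per the labels' protocols. The authors deposited raw counts per Ensembl gene. The submitters' processing notes name mm10, HISAT2 2.1.0, Subread 1.6.5 with featureCounts, and Trimmomatic 0.33. Annotation release, strand setting and handling of multi-mapping reads are not given in the sources used here, so near-identical and overlapping genes are uncertain.

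Counts were filtered (edgeR filterByExpr, minimum count 10, minimum total 15), TMM-scaled and fitted with edgeR 4.0.16 (R 4.3.3) by the quasi-likelihood F test, two-sided, with 1 mean for each of 4 groups over all 14 libraries and Benjamini-Hochberg adjustment over 26990 genes at 0.05. Standard errors came from the F statistics. The script was tested on simulated data.

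Genes were named by rule: the 10 largest changes each way (at least 10 CPM, no overlap, no predicted genes or receptor segments), up to 4 called members per list (2 for other-cell markers) by smallest p, a preset few, and the 6 interaction genes of smallest p. Other names complete a list's calls or were chosen after their values were seen. Members and the 30 lists were chosen with earlier results of these data known. DESeq2 1.42.0 served as an alternative. No replicate was a copy of another within sampling noise (chi-square over its degrees of freedom 4.97 to 27.1). Some members of the lists are not reported here.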

Additional observations from a re-analysis of the deposited data

Results flagged for a closer look

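Among the named genes, 15 of 204 groups of 4 cKO libraries had a single library whose gap to its nearest neighbour exceeded Dixon's 95% critical value for 4 samples, where chance gives about 1 in 20. In 8 of the 15 this library was iILC1 replicate 1, which was high. The genes, each with that library's value and its nearest neighbour's, were Zfp683 (90.4 against 44.7 CPM), Gzma (87.1 against 59.6 CPM), Maf (90.2 against 57.1 CPM) and Tnfsf10 (172 against 105 CPM). The same library stood out for Fyn (394 against 278 CPM), Syk (267 against 198 CPM), Jak1 (2659.9 against 1727 CPM) and Pfkp (301 against 212 CPM). In the other iILC1 case replicate 4 was high for Clip3 (10.9 against 5.27 CPM). Among the iNK libraries, replicate 4 was high for Ifng (9.88 against 4.81 CPM), Lgals1 (269 against 155 CPM) and Cish (7.15 against 6.79 CPM). Replicate 1 was high for Tnf (4.59 against 2.36 CPM) and low for Ahr (15.3 against 18.7 CPM). Replicate 2 was at 0 CPM for Bik, whose next library was at 0.256 CPM.

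For 21 genes the difference between the cell types itself differed between genotypes by the interaction test. For 20 of them the values are given here. The interactions, as the log2 fold change in cKO minus that in control, were negative for the B-lineage genes Igkc (−5.34), Cd79b (−2.30), Fcmr (−3.94), Siglecg (−2.76), Spib (−3.55) and Ly6d (−5.02). They were also negative for the class II genes Cd74 (−2.18), H2-Aa (−1.97) and H2-Ab1 (−1.75), and for Scd1 (−3.43), Irf4 (−2.47), Id3 (−2.46), Nrp2 (−1.80) and Slc37a2 (−1.64). They were positive for Psd2 (2.20), Adgrg5 (2.20), Tmem154 (1.90), Gm49339 (1.71), Trdv4 (1.71) and Clnk (1.6). Ly6d, Adgrg5, Igkc, Scd1, Cd74 and Spib were called in every alternative run for them, and 14 of the 21 were lost in at least 1. Irf4 was lost in 17 of 22 alternatives, Trdv4 in 13 of 22, Slc37a2 in 11 of 22 and H2-Ab1 in 11 of 21. In both cKO groups Scd1 and Irf4 lay below the upper level of silent genes per kilobase. Nrp2, at 4.97 CPM per kilobase in cKO iNK, lay above the level of 4.61 in that group and below the 5.02 of cKO iILC1.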

How the results depend on the processing

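Under 17 alternatives the number of genes called in cKO moved by more than 1.5 times only with the silent receptor genes as a covariate, to 1652, of which 920 were among the 923. Leave-outs of 1 cKO library gave 713 to 1094. The share of higher genes, 50.8%, was 39.7% of 1095 without the 2 libraries lowest on the first principal component, control iNK replicate 1 and cKO iILC1 replicate 1, picked from earlier results. Of 100 called named genes, 92 were called in every alternative run, and the 8 lost at least once were Jak1, Il4ra, Pfkp, Nfkbia, Tnfaip3, S100a4, Vcam1 and Cd74. The 92 include Il7r, Itga1 and Itga2, genes of the sort gates and not a result. Of the genes that did not pass, Il2rb and Bcl2 turned to −0.0176 and −0.0236 without those 2 libraries. Gzmb ran from −0.286 to 0.000655 over the 17 alternatives, the last without iNK replicate 4. The interaction count of 21 was 37 with DESeq2, 56 without the low-count filter, 34 with the covariate and 11 without marker, ribosomal and mitochondrial genes, and leave-outs gave 10 to 33. It was 12 without control iNK replicate 2, 13 without cKO iNK replicate 1, 11 and 10 without control iILC1 replicates 2 and 3, and 33 without cKO iILC1 replicate 4. For iILC1 against iNK in control the count of 1056 was 2180 with DESeq2 and 1593 with the filter at 5 CPM. These control alternatives were added after seeing the data. The replicate block gave 1085 genes in cKO (912 among the 923), 30 interactions and 1594 genes in control. Shared replicate numbers were not treated as pairs, since only 5 of 7 pairs correlated above 0.1 (−0.14 to 0.49), and 3 of 7 libraries correlated best with their own number. The cause of these changes was not tested. Depth limits the lowest genes, such as Bik and Bcl2a1b, and levels below about 5.02 CPM per kilobase of exon lie within the range of silent genes.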
